A study of Mus musculus with 15 samples.

Results

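The 31 genes described here are the transcripts of hepatocyte fatty acid oxidation and ketone synthesis, from the receptor that controls the pathway to the last enzyme that makes a ketone body. They were picked out by gene symbol, and all 31 were found among the 24347 entries of the expression table. All 31 also passed the filter on low values, under which 12703 genes were tested. By role they are the nuclear receptor Ppara, 5 genes of fatty acid uptake, binding, activation and storage, 5 of the carnitine system, 8 of the mitochondrial beta-oxidation spiral, 3 auxiliary enzymes for unsaturated chains, 3 of the electron transfer flavoprotein, 4 of peroxisomal oxidation and 2 of ketone synthesis.

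Long fatty acids enter the hepatocyte, are joined to coenzyme A, and cross the inner mitochondrial membrane as carnitine esters. CPT1A makes the carnitine ester and is the controlled step, because malonyl-CoA inhibits it. Inside, acyl-CoA dehydrogenases, the trifunctional protein and a thiolase shorten the chain, and in the fasted liver much of the acetyl-CoA becomes ketone bodies. Glucagon, acting through cyclic AMP (cAMP), is the fasting hormone that turns this pathway on, and PPARA is the receptor that drives transcription of many of its genes.

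The cells were wild-type mouse primary hepatocytes, freshly isolated by collagenase digestion and kept in culture, with RNA sequenced from 5 groups of 3 libraries. The groups were cAMP with IL-13, glucagon with IL-13, cAMP, glucagon, and vehicle. IL-13, a type 2 cytokine, was given at 10 ng/mL for 2 h, and the hepatocytes were then stimulated with cAMP at 100 µM or glucagon at 100 nM for 3 h, with IL-13 kept in the medium where it had been added. The comparisons ask what each stimulus did to the pathway and whether IL-13 altered that response. There was no group with IL-13 alone. The study's methods describe young adult mice. The strain is not settled, since the strain label counts upward from sample to sample and the methods name BALB/c unless stated otherwise. The cAMP samples are described as controls in 1 free-text label, which goes against the titles, treatments and column names that were used here. Nothing in the labels says whether the 3 libraries of a group were separate mice or cultures, so the spread behind the p-values is that of these libraries alone and may be technical. The vehicle columns are named as controls and the vehicle titles as resting cells, so their numbers could not be matched. Letters (a, b, c) stand for them here.

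Values are scaled reads, that is, estimated reads per gene after the authors' scaling between libraries, unless FPKM is named. The scaled reads summed to between 18793294 and 19955402 per library. A step fitted to the values put the unscaled depth at 15567691 to 24246022 reads, an estimate only, since a separate check found no common step in the low values. The hepatocyte markers summed to between 644694 and 767972 scaled reads in every library, and Alb was the most abundant of them. The 8 Kupffer cell markers summed to 2596 to 3012, Cd5l and Marco among them, so some macrophages were present. The 6 sinusoidal endothelial markers summed to 1508 to 1528 in cAMP libraries and 1301 to 1481 in glucagon libraries, against 1017 to 1311 in vehicle libraries. The neutrophil markers S100a8 and S100a9 summed to 94.5 in vehicle library a and 54.2 in vehicle library b, and to at most 1.02 in the rest. The adipocyte markers stayed at or below 5.21, with Lep at 0 throughout. The 4 cholangiocyte markers summed to 914 to 952 in cAMP libraries, against 972 to 1231 in vehicle libraries, nearly all of it Sox9. The part of these cells in the results was not tested. In such bulk samples fewer cells of a type and less RNA per cell cannot be told apart.

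Vehicle library a stood apart over genes at large, though not in the spread of the members. Deviations are log2 differences from the mean of the other vehicle libraries. Over 9475 more abundant genes their SD was 0.31 in library a, 0.20 in b and 0.22 in c. In library a 101 of these genes were 2-fold lower and 4 higher, against 1 and 3 in b, and 5 and 7 in c. Over the 31 members the SD was 0.17, 0.17 and 0.16. The members ran from -0.37 to 0.35 in library a. Their deviation there fell with transcript length, taken as scaled reads per FPKM (r = -0.79). This r is over n = 31 genes of 1 library, which are not independent replicates, and was not computed for b or c. Ppara, the longest by this measure, was the lowest at -0.37, and Decr1, which is of middle length, was the highest at 0.35. Vehicle comparisons are therefore also given without library a for Ppara, for Cd36 with glucagon and for members whose call changed. Those of Cpt1a, which was at -0.27 in library a, and of genes outside the members are given with all vehicle libraries.

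The promoters of 26 of the 31 members could be read from the RefSeq promoter table (build GRCm38.p6), as 28 windows of 300 bases, each with 250 bases before the transcript start and 50 after it. Acaa2, Acat1, Amacr, Crat and Decr1 had no entry. The 4 windows printed here belong to the genes whose changes were the largest, Ppara and Cpt1a among those that rose, and Plin2 and Fabp1 among those that fell. Each is written along the strand of its gene, and capitals mark matches, on either strand, to TGACG, the core letters of a cAMP response element, to AGGTCA, the core letters that PPARA and other nuclear receptors bind, or to a direct repeat of AGGTCA with a 1-base spacer and up to 2 mismatches.
Ppara, chr15:85735526-85735825, plus strand: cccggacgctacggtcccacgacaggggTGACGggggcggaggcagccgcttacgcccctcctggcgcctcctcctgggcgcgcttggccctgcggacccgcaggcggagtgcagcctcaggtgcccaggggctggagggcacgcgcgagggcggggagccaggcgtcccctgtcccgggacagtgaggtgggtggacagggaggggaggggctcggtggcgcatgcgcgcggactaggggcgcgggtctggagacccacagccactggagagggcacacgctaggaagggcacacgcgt
Cpt1a, chr19:3323051-3323350, plus strand: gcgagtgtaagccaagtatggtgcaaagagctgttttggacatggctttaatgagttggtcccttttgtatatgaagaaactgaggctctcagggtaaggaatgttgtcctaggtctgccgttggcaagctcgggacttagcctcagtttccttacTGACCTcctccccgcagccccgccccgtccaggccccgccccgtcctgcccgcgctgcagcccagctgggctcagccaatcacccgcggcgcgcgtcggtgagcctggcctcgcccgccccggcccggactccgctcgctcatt
Plin2, chr4:86670010-86670309, minus strand: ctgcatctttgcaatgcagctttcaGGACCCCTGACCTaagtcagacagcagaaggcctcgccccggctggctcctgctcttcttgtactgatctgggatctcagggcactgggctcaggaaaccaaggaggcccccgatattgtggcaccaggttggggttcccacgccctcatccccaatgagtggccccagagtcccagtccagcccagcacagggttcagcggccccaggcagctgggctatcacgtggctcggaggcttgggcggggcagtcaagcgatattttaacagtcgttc
Fabp1, chr6:71199629-71199928, plus strand: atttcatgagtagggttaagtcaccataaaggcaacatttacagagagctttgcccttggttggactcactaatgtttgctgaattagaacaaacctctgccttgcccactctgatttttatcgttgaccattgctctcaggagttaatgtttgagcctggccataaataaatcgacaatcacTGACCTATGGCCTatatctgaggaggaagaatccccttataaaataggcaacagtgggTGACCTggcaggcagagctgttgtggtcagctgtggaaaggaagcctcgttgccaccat

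The window of Ppara held TGACG starting 222 bases before the transcript start, and that of Cpt1a held AGGTCA, read on the opposite strand, starting 94 bases before it. The Plin2 repeat, at 225 bases before the start, and the Fabp1 repeat, at 67 bases before it, each include an exact AGGTCA, and Fabp1 held a second AGGTCA 9 bases before its start. Over the members, 5 of the 28 windows (17.9%) held TGACG, against 20.8% of all 32851 windows of the same length, and 7 (25.0%) held AGGTCA, against 16.3%. The relaxed direct repeat was in 5 member windows (17.9%), those of Plin2, Cd36, Fabp1, Etfa and Slc25a20, against 3.86% of all windows. The exact direct repeat was in 0 member windows and in 0.0396% of all, and the full cAMP response element TGACGTCA was in 0 and in 1.79%. The STAT-type letters TTCNNNGAA were in 3 member windows, against 8.3% of all, and the same letters with a spacer of 4 bases were in 1, against 6.95%. A match is only a description of these letters. Hadha and Hadhb, which encode the subunits of the mitochondrial trifunctional protein, are read in opposite directions, and their windows share 228 bases (chr5:30155003-30155230), so they share the TTCNNNGAA match.

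In vehicle hepatocytes the members spanned a wide range of level per transcript length. Ppara and Cpt1a, with the largest responses, were in the lower part of it, and Plin2 and Fabp1, with the largest falls under glucagon, were at the top. Plin2, the lipid droplet coat protein, averaged 249 FPKM (239 to 256 over the 3 libraries), Fabp1, the fatty acid carrier of liver cytosol, averaged 245 FPKM (202 to 285), and Acaa2, the mitochondrial thiolase, averaged 208 FPKM (185 to 229). The ranges of these neighbours overlap. Cpt1a averaged 12.8 FPKM (11.2 to 13.6), Crat 5.15 FPKM (4.75 to 5.35) and Ppara 3.03 FPKM (2.47 to 3.34). Ppara was the lowest of the 31, and its libraries did not overlap those of Crat, the next above it.

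**Figure D1:**
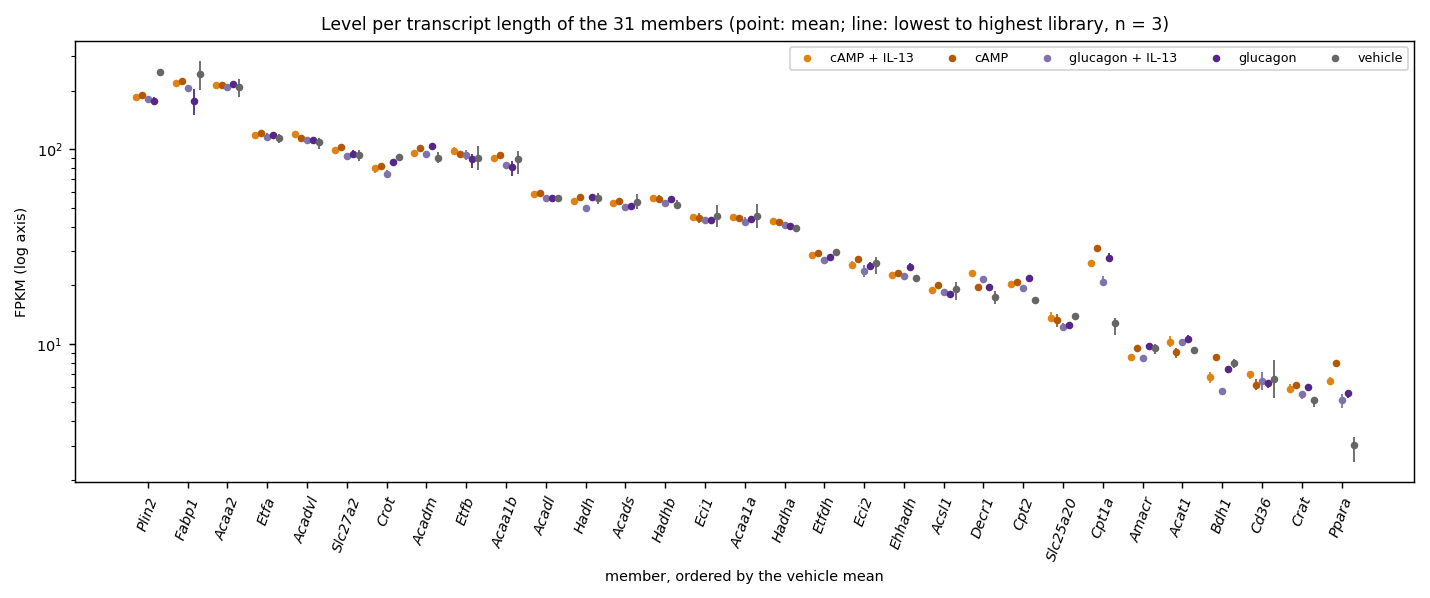
Level per transcript length (FPKM, log axis) of the 31 members in the 5 groups, ordered by the vehicle mean, with points for means and lines from the lowest to the highest of 3 libraries. Ppara, at 3.03 FPKM in vehicle cells, is at the low end, and Ppara and Cpt1a are the members whose groups spread furthest.

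Under both stimuli the receptor and the carnitine entry enzymes rose, while most of the oxidation enzymes did not pass the test. Ppara and Cpt1a rose most, Cpt2 and Crat rose by smaller amounts, and Plin2 fell. In the cAMP comparison, 7 of the 31 members (22.6%) passed limma's test at an adjusted p under 0.05, against 25.8% of all genes tested. Of these, 5 rose, against 13.0% of all genes, and 2 fell, against 12.8%. In the glucagon comparison, 8 of 31 members (25.8%) passed, against 18.9% of all genes. Of these, 6 rose, against 9.35% of all genes, and 2 fell, against 9.53%. The median log2 difference of the members was 0.06 for cAMP and 0.03 for glucagon, beside 0.01 and 0.02 over all genes tested. When libraries were scaled by their sums alone, the calls over all genes split into 1265 higher and 2147 lower for cAMP, in place of 1648 and 1624, and into 956 higher and 1502 lower for glucagon, in place of 1188 and 1211. Both comparisons use the same 3 vehicle libraries.

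**Figure D2:**
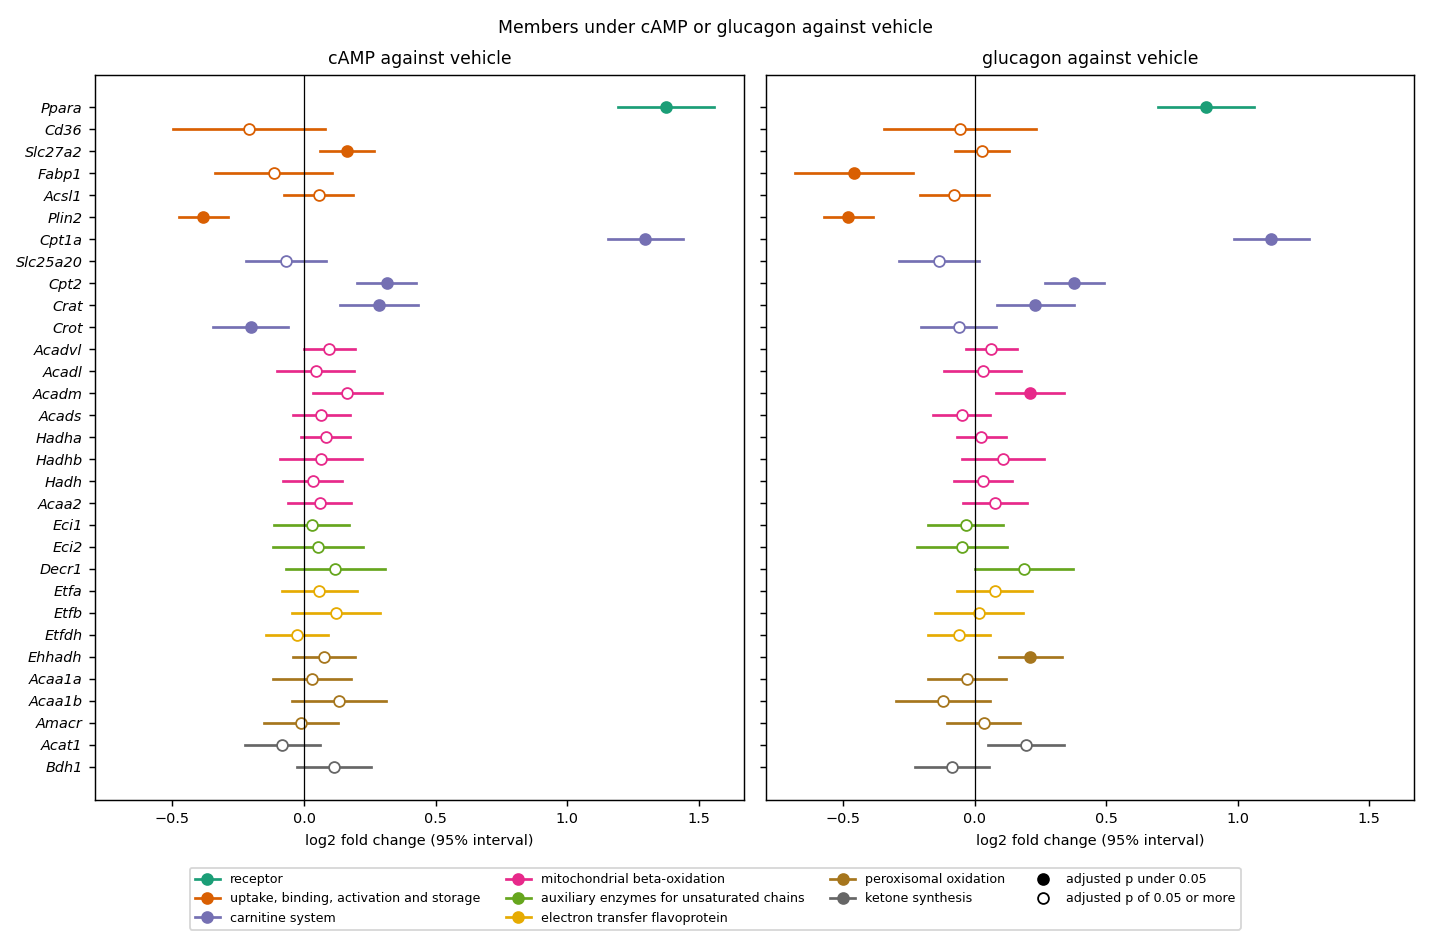
Log2 fold change against vehicle with its 95% interval for each of the 31 members, grouped by role, under cAMP (left) and glucagon (right). Filled points have an adjusted p under 0.05, and Ppara and Cpt1a, at 1.38 and 1.30 under cAMP and 0.88 and 1.13 under glucagon, lie apart from the rest.

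Ppara encodes the fatty acid-sensing nuclear receptor (chr15:85734910-85806851, GRCm38.p6). It had 1053, 1033 and 1059.8 scaled reads in cAMP libraries and 777, 698 and 754 in glucagon libraries, against 340.0, 431 and 448 in vehicle libraries. Neither stimulated group overlapped the vehicle group. The log2 fold change was 1.38 ± 0.09 (SE) for cAMP, with an adjusted p of 7.55e-10 by limma, and 0.88 ± 0.09 for glucagon, with an adjusted p of 4.82e-07. Without vehicle library a, where Ppara was lowest, they were 1.25 and 0.76. The rise was smaller with glucagon than with cAMP, with a log2 difference of -0.50 ± 0.09 (adjusted p = 0.00152), and the 3 glucagon libraries were all below the 3 cAMP libraries.

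In the carnitine system, Cpt1a (chr19:3322326-3385735), the malonyl-CoA-sensitive entry enzyme, had 2612, 2664 and 2611 scaled reads in cAMP libraries and 2487, 2276 and 2247 in glucagon libraries, against 945, 1132 and 1141 in vehicle libraries. All 6 stimulated libraries were above the highest vehicle library. The log2 fold changes were 1.30 ± 0.07 (adjusted p = 4.91e-11) and 1.13 ± 0.07 (adjusted p = 6.38e-10). Glucagon against cAMP gave -0.17 for Cpt1a (adjusted p = 0.211, or 0.0387 without vehicle library a). That library is not in this comparison, and the difference stayed the same without it.

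Cpt2, which turns the carnitine ester back into acyl-CoA inside the mitochondrion, had 959.5, 956 and 945 scaled reads with cAMP and 1035, 956 and 1005 with glucagon, against 741, 779 and 781 with vehicle. Neither stimulated group overlapped the vehicle group, and the log2 fold changes were 0.31 (adjusted p = 0.000211) and 0.38 (adjusted p = 3.92e-05). Crat, the short-chain carnitine acetyltransferase, had 637, 615 and 666 with cAMP and 588, 625 and 634 with glucagon, against 526, 558 and 490.3 with vehicle. It rose by 0.29 with cAMP (adjusted p = 0.00527) and by 0.23 with glucagon (adjusted p = 0.0267). The glucagon call was lost without vehicle library c (adjusted p = 0.105) and without glucagon library 2 or 3 (0.0771 and 0.0943). It was also lost when libraries were scaled by their sums alone (0.0608) and with only the libraries compared (0.143).

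Of the other carnitine genes, Slc25a20, the carrier that exchanges carnitine esters across the inner membrane, did not pass the test with either stimulus, at -0.07 for cAMP (95% interval -0.22 to 0.08) and -0.14 for glucagon (-0.29 to 0.02). Crot, the peroxisomal octanoyltransferase, had 2951, 3271 and 2912 scaled reads with cAMP, against 3703, 3278 and 3533 with vehicle. It fell by 0.20 with cAMP (adjusted p = 0.0345), with the highest cAMP library just under the lowest vehicle library. The call was lost without vehicle library a or c (adjusted p = 0.0796 and 0.0727) and without cAMP library 1 or 3 (0.12 and 0.135). It was also lost with no filter on low values (0.0516), with only the libraries compared (0.103) and without the variance trend and robust step (0.07).

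Among the 5 genes of uptake, binding, activation and storage, 1 rose and 1 fell with cAMP, against 13.0% and 12.8% of all genes. With glucagon 0 rose and 2 fell, against 9.35% and 9.53%. Plin2, which coats lipid droplets and is itself a PPARA target, had 6972, 6812 and 6681 scaled reads in cAMP libraries and 6233, 6261 and 6642 in glucagon libraries, against 9198, 8942 and 8544 in vehicle libraries. Every stimulated library was below every vehicle library, and the log2 fold changes were -0.38 ± 0.04 (adjusted p = 2.2e-06) and -0.48 ± 0.04 (adjusted p = 1.78e-07). Fabp1 had 1442, 1440.0 and 1338 with cAMP and 952, 1106 and 1291 with glucagon, against 1787, 1547 and 1278 with vehicle. It fell by 0.46 with glucagon (adjusted p = 0.00465), although glucagon library 3 lay above vehicle library c, and the call was lost when the fit held only the libraries compared (adjusted p = 0.0782). Slc27a2, a very long-chain acyl-CoA synthetase and transporter, had 5304, 5487 and 5112 with cAMP, against 4874, 4814 and 4509.6 with vehicle. Its rise of 0.16 (adjusted p = 0.0185) was lost without vehicle library c (0.0777) and without cAMP library 1 or 2 (0.0542 and 0.0777). It was also lost when libraries were scaled by their sums alone (0.0887), in the FPKM table (0.0527) and with only the libraries compared (0.115).

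Acsl1, the main long-chain acyl-CoA synthetase of liver, had 1426, 1464 and 1368 scaled reads with cAMP and 1269, 1317 and 1299 with glucagon, against 1226, 1449.8 and 1433 with vehicle. Both stimulated groups overlapped the vehicle group, and the log2 differences of 0.06 and -0.08 did not pass the test. Without vehicle library a, the glucagon difference was -0.15 (adjusted p = 0.0371). Cd36, the fatty acid translocase, had 227, 224 and 205 with cAMP and 248, 236 and 245 with glucagon, against 289, 182 and 307 with vehicle. Here vehicle library b set the spread, and without it the log2 differences of Cd36 were -0.44 with cAMP (adjusted p = 0.00123) and -0.29 with glucagon (adjusted p = 0.032). With all libraries they were -0.21 and -0.06 and did not pass, and with glucagon the sign turned without vehicle library a (0.04) or c (0.084).

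The 8 genes of the mitochondrial beta-oxidation spiral stayed within narrow limits. Their log2 differences ran from 0.03 to 0.16 for cAMP, none of which passed the test (1 had an unadjusted p under 0.05), and from -0.05 to 0.21 for glucagon, of which 1 passed. The 95% intervals of all 8 lay between -0.10 and 0.29 for cAMP and between -0.16 and 0.34 for glucagon, so a change of the size seen for Cpt1a lay outside each of them. Hadha, the large subunit of the trifunctional protein, shows this most closely, with 2961, 3040.3 and 3039 scaled reads in cAMP libraries and 2888, 2868 and 2931 in glucagon libraries, against 2773, 2907 and 2859 in vehicle libraries. Its differences were 0.08 (95% interval -0.01 to 0.18) and 0.03 (-0.07 to 0.12).

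The member of the spiral that passed was Acadm, the medium-chain acyl-CoA dehydrogenase. It had 3668, 3904 and 3622 scaled reads with cAMP and 3993, 3672 and 3896 with glucagon, against 3636, 3070.3 and 3299 with vehicle. It rose by 0.21 ± 0.06 with glucagon (adjusted p = 0.0215), while with cAMP the difference was 0.16 (adjusted p = 0.0591). The glucagon call was lost without vehicle library b (0.11) and without glucagon library 1 or 3 (0.0829 and 0.0683). It was also lost when libraries were scaled by their sums alone (0.0579) and with only the libraries compared (0.141).

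More members passed when vehicle library a was left out, some of the spiral and some of other roles. Without that library, the members called in the cAMP comparison were 10 rather than 7, and in the glucagon comparison 13 rather than 8. With cAMP, Acadm (0.23, adjusted p = 0.00357), Acadvl, the very long-chain dehydrogenase (0.12, 0.0436), Decr1, the reductase for unsaturated chains (0.24, 0.0199), and Etfb, a subunit of the electron transfer flavoprotein (0.20, 0.0491), then passed. With glucagon, Acaa2 (0.14, 0.0447), Hadhb (0.20, 0.0241), Decr1 (0.31, 0.00421), Acat1 (0.23, 0.0254) and Acsl1 then passed. Reads of Etfb and Hadhb are uncertain, because 44.8% of the 50-base stretches of Etfb transcripts also occur in another gene, mostly Gm45233, and 19.7% of those of Hadhb, mostly Gm13910. The largest of these changes, that of Decr1, was smaller than those of Ppara and Cpt1a.

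The auxiliary enzymes Eci1, Eci2 and Decr1 and the electron transfer genes Etfa, Etfb and Etfdh, which pass electrons from the dehydrogenases to the respiratory chain, gave 0 calls with either stimulus in the fit with all libraries, where Decr1 with glucagon was the 1 with an unadjusted p under 0.05. Their differences ran from -0.03 to 0.12 for cAMP and from -0.06 to 0.19 for glucagon. In the peroxisome, Ehhadh, the bifunctional enzyme and a classical PPARA target, had 1350.1, 1212 and 1245 scaled reads with glucagon, against 1094, 1109 and 1079 with vehicle. It rose by 0.21 (adjusted p = 0.0121) without overlap, and the call was lost without glucagon library 1 (0.0621) and with only the libraries compared (0.128). With cAMP it had 1149, 1221 and 1093 and did not pass. Amacr, the racemase for branched chains, and the thiolases Acaa1a and Acaa1b did not pass with either stimulus. The thiolase pair is uncertain in the same way, because 30.5% of the 50-base stretches of Acaa1b transcripts also occur in Acaa1a, and the sources used here do not give how the authors' counting divided such reads. Acaa1b differed by -0.12 with glucagon, and by -0.23 (adjusted p = 0.0423) without vehicle library c.

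Of the 2 genes of ketone synthesis, neither passed against vehicle, and Acat1 with glucagon had an unadjusted p under 0.05. Acat1, the mitochondrial thiolase that makes acetoacetyl-CoA, had 476, 448 and 462 scaled reads with cAMP and 561, 538 and 581 with glucagon, against 513, 478 and 476 with vehicle. Glucagon libraries were above all cAMP libraries, and glucagon against cAMP was 0.28 ± 0.07 (adjusted p = 0.0236). This call was lost without any one of the cAMP libraries (0.0525 to 0.0799), without glucagon library 1 or 3 (0.0676 and 0.113) and in the FPKM table (0.0766). Against vehicle the glucagon difference was 0.20 (adjusted p = 0.0543). Bdh1, which reduces acetoacetate to 3-hydroxybutyrate, had 528, 508 and 506 with cAMP and 445, 438 and 458 with glucagon, against 473, 496 and 454 with vehicle, with differences of 0.12 and -0.09.

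Between the stimuli, 2 of the 31 members differed, glucagon against cAMP, which is 6.45% of them against 4.27% of all genes. Acat1 was the 1 higher (1.76% of all genes were higher) and Ppara the 1 lower (2.51% were lower). Fabp1 differed by -0.34, glucagon against cAMP, with no overlap of the libraries, and did not pass (adjusted p = 0.0873). It passed without vehicle library a or c (0.0155 and 0.0236) and without glucagon library 3 (0.0204). The vehicle libraries are not in this comparison, and without a or c the difference stayed at -0.34.

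With IL-13 added, each of the members that passed the test was lower than with the stimulus alone, and Bdh1 and Cpt1a were lower with both stimuli. In cAMP-treated cells 2 of 31 members (6.45%) passed, against 3.9% of all genes. Both were lower, against 1.38% of all genes, and 0 members were higher, against 2.52% of all genes. In glucagon-treated cells 4 of 31 members (12.9%) passed, against 5.73% of all genes. All 4 were lower, against 2.23% of all genes, and 0 were higher, against 3.5%. The median log2 difference of the members was -0.04 with cAMP and -0.05 with glucagon, beside -0.00077 and -0.0020 over all genes. At an unadjusted p under 0.05, 2 members were higher and 4 lower with cAMP, where 13.1% of all genes passed in either direction. With glucagon 1 was higher and 8 lower, where 18.2% of all genes passed in either direction. Summed markers of some other cell types also stood apart with IL-13. The 8 Kupffer cell markers summed to 2596 to 2635 with cAMP and IL-13, against 2703 to 3012 with cAMP, and to 2650 to 2757 with glucagon and IL-13, against 2830 to 2879 with glucagon. The 6 stellate cell markers summed to 283 to 317 with cAMP and IL-13, against 339 to 385 with cAMP, and to 302 to 334 with glucagon and IL-13, against 349 to 394 with glucagon. The 4 lymphocyte markers, nearly all Ptprc, summed to 35.6 to 45.1 with cAMP and IL-13, against 47.9 to 51.9 with cAMP, and to 37.5 to 41.9 with glucagon and IL-13, against 48.5 to 68.5 with glucagon. The cholangiocyte markers were higher with IL-13, at 1037 to 1105 with cAMP and IL-13, against 914 to 952 with cAMP, and at 1336 to 1584 with glucagon and IL-13, against 1027 to 1169 with glucagon, again nearly all Sox9, with Krt7 at most 2.04 and Epcam at most 10.5. None of these pairs of groups overlapped. The hepatocyte markers overlapped with both stimuli, at 739500 to 756207 with cAMP and IL-13, against 692707 to 767972 with cAMP. They summed to 685519 to 720469 with glucagon and IL-13, against 691822 to 736000 with glucagon. The endothelial markers overlapped with glucagon (1326 to 1378 with IL-13, against 1301 to 1481) but not with cAMP (1489 to 1500, against 1508 to 1528). The part of these cells in the IL-13 results was not tested. Of the members, 9 of 31 were above 0 with cAMP and 10 of 31 with glucagon, beside 49.8% and 49.5% of all genes.

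**Figure D3:**
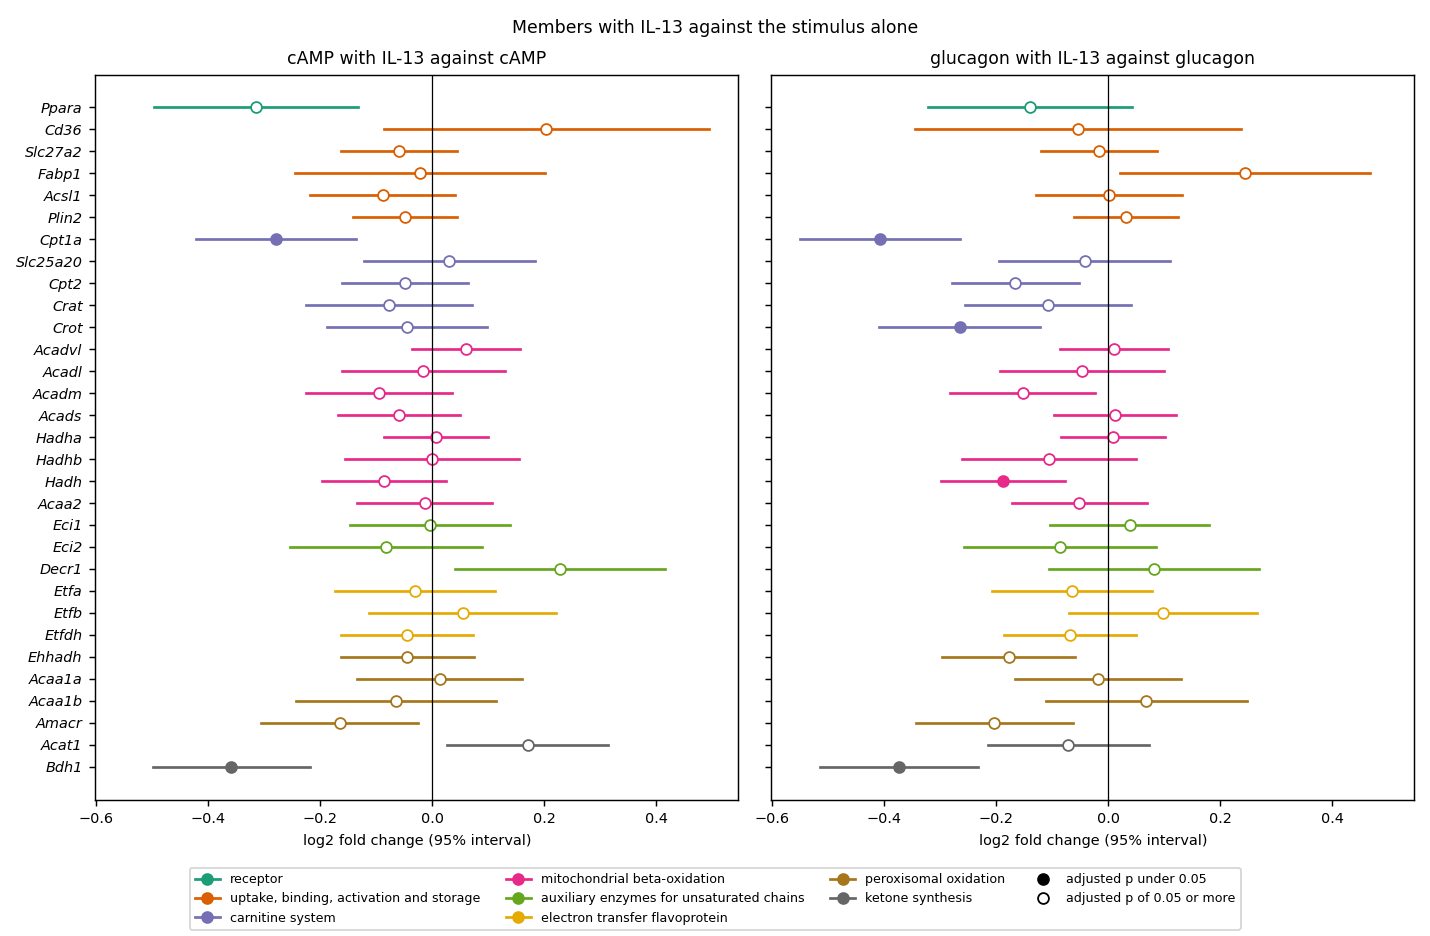
Log2 fold change with IL-13 against the stimulus alone, with its 95% interval, for the 31 members by role, under cAMP (left) and glucagon (right). Filled points have an adjusted p under 0.05; they are Bdh1 and Cpt1a on the left, and Bdh1, Cpt1a, Crot and Hadh on the right, all below 0.

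Bdh1 had 403, 427 and 374 scaled reads with cAMP and IL-13, against 528, 508 and 506 with cAMP. It had 344, 353 and 337 with glucagon and IL-13, against 445, 438 and 458 with glucagon. The libraries with IL-13 did not overlap those with the stimulus alone, and all 6 were also below the vehicle libraries, of which the lowest was 454. The log2 differences were -0.36 ± 0.07 (adjusted p = 0.00322) and -0.37 ± 0.07 (adjusted p = 0.00187), and both kept their call under all 25 alternative settings. Neither stimulus alone moved Bdh1 past the threshold.

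Cpt1a had 2169, 2151 and 2179.7 scaled reads with cAMP and IL-13, against 2612, 2664 and 2611 with cAMP. It had 1721, 1869 and 1699 with glucagon and IL-13, against 2487, 2276 and 2247 with glucagon. All libraries with IL-13 were below those of the stimulus alone and above every vehicle library. In group means, the drop with IL-13 equalled 29.7% of the rise over vehicle with cAMP and 45.4% of that with glucagon. Without a group given IL-13 alone, a smaller response and a lower level regardless of the stimulus cannot be told apart. The log2 differences were -0.28 ± 0.07 (adjusted p = 0.0241) and -0.41 ± 0.07 (adjusted p = 0.00102). The glucagon call held under all 25 alternatives, whereas the cAMP call was lost without any one of the 3 cAMP libraries (adjusted p = 0.0761 to 0.0801) or of the 3 libraries with cAMP and IL-13 (0.086 to 0.0992). The cAMP call was also lost without the variance trend and robust step (0.0625).

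**Figure D4:**
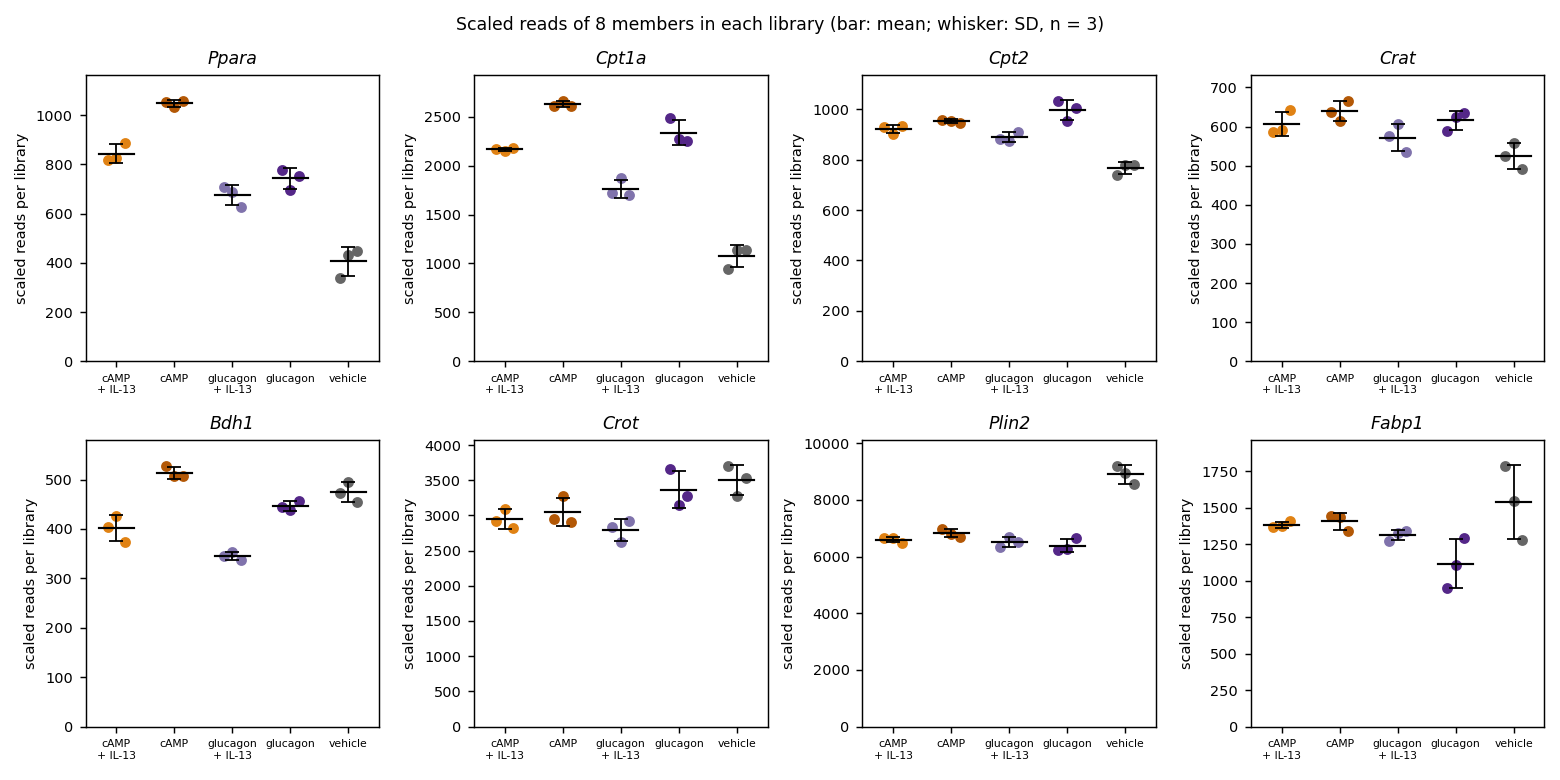
Scaled reads of 8 members in each library, with the mean and SD of each group of 3. Cpt1a is intermediate in the groups with IL-13, Bdh1 is lowest in them, and Plin2 is lower in all 4 stimulated groups, at 6233 to 6972, than in vehicle libraries, at 8544 to 9198.

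Ppara had 817, 825 and 889 scaled reads with cAMP and IL-13, against 1053, 1033 and 1059.8 with cAMP, and the groups did not overlap. The log2 difference was -0.31 ± 0.09 and missed the threshold (adjusted p = 0.0514). It passed in the fits without vehicle library a (0.00213), b (0.0473) or c (0.0302). No vehicle library is compared here, and the difference stayed at -0.31 in those fits. With only the libraries compared it also passed (0.000865). Ppara did not pass in any fit that left out a library of cAMP or of cAMP with IL-13. With glucagon the values were 707, 690.0 and 628 with IL-13, against 777, 698 and 754 without it, a difference of -0.14 (95% interval -0.32 to 0.04).

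Crot and Hadh passed with glucagon and did not pass with cAMP. Crot had 2837, 2627 and 2928 scaled reads with glucagon and IL-13, against 3659, 3153 and 3280.1 with glucagon, a difference of -0.26 (adjusted p = 0.0266). The call was lost without glucagon library 1 (0.141) or 3 (0.0593), and without library 1 (0.0735) or 2 (0.143) of glucagon with IL-13. It was also lost without the variance trend and robust step (0.0689). Hadh, the short-chain hydroxyacyl-CoA dehydrogenase, had 1625, 1595 and 1669, against 1868, 1830.0 and 1866, a difference of -0.19 (adjusted p = 0.0454) that 11 of 25 alternatives kept. It was lost without any 1 of the 6 libraries compared, with adjusted p of 0.0669 to 0.164.

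The remaining members did not pass with IL-13. Acadm had 3447, 3679.8 and 3362 scaled reads with cAMP and IL-13, against 3668, 3904 and 3622 with cAMP, and 3367, 3414 and 3618 with glucagon and IL-13, against 3993, 3672 and 3896 with glucagon. Its differences were -0.09 and -0.15. Hadha had 2932, 3070.0 and 3088 with cAMP and IL-13 and 2972, 2868 and 2901 with glucagon and IL-13, and its differences were both 0.01, with 95% intervals of -0.09 to 0.10 and -0.08 to 0.10. Acsl1 had 1324, 1314 and 1366 with cAMP and IL-13 and 1287, 1276 and 1328 with glucagon and IL-13, and its differences were -0.09 and 0.0022.

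Among the lipid handling genes, Plin2 had 6657, 6639 and 6489 scaled reads with cAMP and IL-13 and 6344, 6695 and 6529.5 with glucagon and IL-13, close to its levels with each stimulus alone. Fabp1 had 1369, 1378 and 1408 with cAMP and IL-13 and 1274, 1326 and 1341 with glucagon and IL-13. With glucagon its difference was 0.24 (adjusted p = 0.223), and the groups overlapped. Cd36 had 248, 267 and 241 with cAMP and IL-13 and 247, 221 and 235 with glucagon and IL-13, with differences of 0.20 and -0.05. Decr1 was 0.23 higher with cAMP and IL-13 (adjusted p = 0.231, or 0.0434 without vehicle library a). Without that library Ehhadh (-0.18, 0.0426) and Cpt2 (-0.17, 0.0441) also passed in the glucagon comparison, where the fit with all libraries gave adjusted p of 0.0811 and 0.0866. Vehicle library a is not in these IL-13 comparisons, and the fold changes of Decr1, Ehhadh and Cpt2 stayed the same without it.

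The effect of IL-13 was also tested for a difference between the stimuli, glucagon minus cAMP. For this difference limma called 0 members and 0.0% of all genes. At an unadjusted p under 0.05 there were 2 members, Acat1 and Crot, and 608 of 12703 genes (4.79%). For Cpt1a the 2 effects differed by -0.13 on the log2 scale (95% interval -0.33 to 0.07), and for Bdh1 by -0.02 (-0.21 to 0.18). Calls in 1 stimulus and not in the other are therefore not shown to differ.

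Genes around the pathway were examined in 6 lists, whose counts stand beside shares over all genes of 13.0% higher and 12.8% lower for cAMP against vehicle, and 9.35% higher and 9.53% lower for glucagon against vehicle. In the list of 20 PPARA partners and coregulators, 6 rose and 1 fell with cAMP, and 6 rose and 2 fell with glucagon. Ppargc1a, the fasting-induced coactivator of PPARA, had 613 to 689 scaled reads with cAMP and 451 to 548 with glucagon, against 25.2 to 54.2 with vehicle, log2 fold changes of 3.99 (adjusted p = 7.83e-10) and 3.63 (adjusted p = 3.26e-09). Lpin1, a coactivator and phosphatidate phosphatase, rose by 1.19 with cAMP. With glucagon it had 1425 to 1620 scaled reads, against 874 to 1047 with vehicle. Sirt1, a deacetylase that acts on PGC-1alpha, rose by 0.92 with glucagon. Tfeb, a lysosomal transcription factor, fell by 0.67 with cAMP and fell by 0.70 with glucagon. The median of the list was 0.26 with cAMP and 0.14 with glucagon. With IL-13 limma called 0 of the 20 in either comparison, against 3.9% of all genes with cAMP and 5.73% with glucagon. At an unadjusted p under 0.05, 3 were higher and 1 lower with cAMP, against 13.1% of all genes in either direction. With glucagon 3 were higher and 2 lower at that threshold, against 18.2% of all genes.

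The 22 PPARA targets outside the 31 members did not move one way. With cAMP, 6 rose and 3 fell, and with glucagon, 2 rose and 2 fell, close to the shares of 9.35% and 9.53% over all genes. Pdk4, the kinase that shuts pyruvate dehydrogenase during fasting, had 2186 to 2325 scaled reads with cAMP and 1231 to 1338 with glucagon, against 619 to 669.9 with vehicle, and rose by 1.81 with cAMP and by 0.98 with glucagon. Angptl4, the inhibitor of lipoprotein lipase, had 203 to 249 with cAMP and 254 to 289.7 with glucagon, against 974 to 1042 with vehicle, log2 fold changes of -2.15 and -1.91. Pex11a, a peroxisome division factor, fell by 0.58 with cAMP and fell by 0.73 with glucagon. With IL-13, Fgf21, the hepatic fasting hormone, was 0.87 higher with glucagon (adjusted p = 3.99e-05) and 0.45 higher with cAMP (adjusted p = 0.0229, a call lost without any 1 of the 6 libraries compared, at 0.068 to 0.104), and Cidec, a lipid droplet protein, was 0.48 higher with cAMP and 0.51 higher with glucagon. Creb3l3, the transcription factor that works with PPARA on Fgf21, differed by -0.37 with IL-13 and cAMP (adjusted p = 0.00393).

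In the list of 9 ketone body enzymes and carriers, 1 rose and 1 fell with cAMP. Slc16a6, a carrier for ketone body export, fell by 0.66 with cAMP and fell by 0.93 with glucagon. Slc16a1, a monocarboxylate carrier, was 0.30 higher with IL-13 and cAMP (adjusted p = 0.00611).

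Of the 11 tested genes of malonyl-CoA and AMPK control, 2 rose and 3 fell with each stimulus (all genes 13.0% and 12.8% with cAMP, 9.35% and 9.53% with glucagon). Acacb, whose product makes the malonyl-CoA that inhibits CPT1A, had 2459 to 2886 scaled reads with cAMP and 2130 to 2525 with glucagon, against 983 to 1648 with vehicle. It rose by 0.96 with cAMP and by 0.76 with glucagon (adjusted p = 0.00604, or 0.0621 when only the libraries compared were fitted). Prkab1, a regulatory subunit of AMPK, had 412 to 501 with cAMP and 427 to 491 with glucagon, against 799 to 807 with vehicle, log2 fold changes of -0.80 and -0.84.

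Of the 38 tested genes in the list of other acyl-CoA enzymes, 9 rose and 0 fell with cAMP (2 were lower at an unadjusted p under 0.05), and 6 rose and 1 fell with glucagon, beside 13.0% and 12.8% of all genes with cAMP and 9.35% and 9.53% with glucagon. Acsl3, an acyl-CoA synthetase of lipid droplets, rose by 1.33 with cAMP and by 0.91 with glucagon. Of 2 enzymes that cut coenzyme A in the peroxisome, Nudt7 rose by 0.89 with cAMP and Nudt19 by 0.83 with glucagon. With IL-13, Acsl4, a synthetase that prefers arachidonate, was 0.49 higher with cAMP (adjusted p = 0.0067). Decr2, the peroxisomal counterpart of Decr1, differed by -0.29 with glucagon and IL-13 (adjusted p = 0.0025).

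Among 23 tested genes of fatty acid uptake, binding and droplets, 7 rose and 2 fell with cAMP, and 4 rose and 1 fell with glucagon, where the shares over all genes were again 13.0% and 12.8%, and 9.35% and 9.53%. G0s2, an inhibitor of the lipase ATGL, had 264 to 354.5 scaled reads with cAMP and 303 to 397 with glucagon, against 608 to 636 with vehicle, log2 fold changes of -0.97 and -0.79. With IL-13 it was 0.59 higher with cAMP (adjusted p = 0.00201) and 0.44 higher with glucagon (adjusted p = 0.0171), and the glucagon call was lost without glucagon library 1 (0.104) and without library 1 (0.0596) or 2 (0.072) of glucagon with IL-13. Hilpda, another ATGL inhibitor, rose by 1.32 with cAMP and 0.56 with glucagon. The 2 inhibitors of this lipase changed in opposite directions under each stimulus.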

How the data were processed

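RNA of primary hepatocytes was sequenced as single-end reads from TruSeq libraries. The submitters' processing notes name TopHat 1.3.2, Cufflinks 2.0.2 and mm10. The annotation and strand setting are not given in these sources, so antisense partners cannot be told apart. The main deposited table holds a signal that the authors scaled between libraries, called scaled reads. The FPKM table the authors deposited served for levels per length and as an alternative. A deposited flag of another kind marks small RNA. Of 24347 entries, 27 had a symbol turned into a date and stayed unnamed.

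Count tests on recovered reads were planned and not run. A step fitted per library made 98.4% to 98.7% of values whole within 0.1 read, but a separate unit check required for this work found no common step in the low values, so the values were kept as scaled signal. A gene was tested if 3 or more libraries reached 10 scaled reads. The test was limma 3.58.1 in R 4.3.3 on log2(value + 1), with group as the only term, all 15 libraries, a variance trend and robust moderation, and fold changes are on that scale. P-values were adjusted over 12703 genes by Benjamini-Hochberg at 0.05. The steps were tested on simulated data. By that step depth was estimated at 15567691 to 24246022 reads. No batch or date is labelled.

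The members and lists were chosen with earlier results of these data known. Values per library are given for Ppara, Cpt1a, Acadm, Hadha, Acsl1, Fabp1, Cd36, Plin2 and up to 6 further called members per comparison. For each further list up to 2 genes per direction and comparison could be named, among called genes averaging at least 50 scaled reads. A gene named for 1 stimulus may therefore also have changed with the other. Alternatives changed the pseudocount (0.5 or 4), filter, scaling, table, libraries fitted, variance model or library weights, added a replicate block, or left out each library. A gene of the ketone body list is not reported here.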

Additional observations from a re-analysis of the deposited data

How the results depend on the processing

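Members called, out of 31, changed as follows. In cAMP against vehicle 7 were called, and 5 to 10 when each library was left out in turn. In glucagon against vehicle 8 were called, 4 with only the libraries compared, and 6 to 13 with each library left out. In cAMP with IL-13 against cAMP 2 were called, 4 with only the libraries compared, 1 without the variance trend and robust step, 5 with library weights, and 1 to 4 with each library left out. In glucagon with IL-13 against glucagon 4 were called, 2 without the trend and robust step, 7 with library weights, and 2 to 6 with each library left out. In glucagon against cAMP 2 were called, 1 in the FPKM table, 4 with library weights, and 1 to 4 with each library left out. For the difference of the IL-13 effects 0 were called under every alternative. The causes of these changes were not tested. Among the fits that left out 1 library, the highest count in the first 5 comparisons came without vehicle library a, tied with vehicle library c for glucagon against cAMP. Where vehicle is not one of the groups compared, the fold changes stayed the same in those fits. Over all genes, the difference of the IL-13 effects had 0 calls, but 48 with library weights.

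Deviations from the group means correlated at r from -0.47 to 0.49 over 18 pairs of libraries with the same number. Over 36 pairs with other numbers r ran from -0.55 to 0.54. With 3 libraries per group these ranges cannot settle whether equal numbers share a source, and the labels name no pairing. With the number as a replicate block over the 4 numbered groups, 3, 4 and 4 members were called in cAMP with IL-13 against cAMP, glucagon with IL-13 against glucagon, and glucagon against cAMP. The same fit with no block, added after the data were seen, gave 4, 7 and 5. No paired analysis was possible because the numbers of the vehicle columns could not be matched to the vehicle titles, for the comparisons with vehicle.

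Cd36 under glucagon changed sign, at -0.06 with all libraries, 0.14 with library weights, and -0.29 to 0.084 with each library left out in turn (0.04 without vehicle a, 0.084 without c). No other of the 45 member fold changes followed was reversed. Pseudocounts of 0.5 and 4 left every count of members the same. The planned count tests were not run, since the recovery of whole reads did not pass its check, so how the calls fare under a count model is unknown. Depth limits the counting error of the rarer members such as Cd36, at 182 scaled reads in its lowest library.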
